A study of Mus musculus with 64 samples.

Results

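The genes described here are 10 regulators of the passage from G1 to S phase: the D-type cyclins Ccnd1, Ccnd2 and Ccnd3, the E-type cyclins Ccne1 and Ccne2, cyclin A2 (Ccna2), the kinase Cdk6, and the inhibitors Cdkn1b (p27), Cdkn1c (p57) and Cdkn2c (p18). They were taken by name, through the Ensembl identifiers of the count tables. All 10 were among the 38924 genes listed for LSK cells and among those listed for GMP and MEP. For CMP, 9 of the 10 were listed, and Cdkn2c was not analysed here in that population.

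RNA was sequenced from progenitors sorted from livers of C57BL/6 mouse fetuses that carried 2, 1 or no intact copies of Smarcd2 (+/+, +/- and -/-, called WT, HET and KO). The Smarcd2 protein belongs to the BAF (SWI/SNF) chromatin remodellers, and the allele is not described further in the labels. The fetuses were aged between 13 and 14 days post coitum, except 1 CMP HET library labelled 14.5 days. LSK cells, which are lineage-negative, Sca-1-positive and c-Kit-positive and include blood stem cells, were profiled in 5 WT, 9 HET and 9 KO libraries. Sex was recorded for LSK libraries only: each genotype held both sexes, and WT was mostly female. For both the common myeloid progenitors (CMP) and the megakaryocyte-erythroid progenitors (MEP) there were 3 WT, 7 HET and 4 KO. The granulocyte-monocyte progenitors (GMP) had 3 WT, 7 HET and 3 KO. The gates of the last 3 populations are written with CD177 in the labels, where the staining list of the LSK protocol has CD117 (c-Kit). Whether libraries of a group come from different fetuses is not stated, so a p-value measures the spread between these libraries, which may be technical.

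Entry into S phase is driven by cyclin-dependent kinases. D cyclins bind Cdk4 or Cdk6 and begin to phosphorylate the retinoblastoma protein, which frees E2F transcription factors. E2F then raises the E cyclins, the partners of Cdk2, and cyclin A2, which acts from S phase to mitosis. The Cip/Kip inhibitors p27 and p57 bind cyclin-kinase complexes, and the Ink4 inhibitor p18 binds Cdk4 and Cdk6. In blood stem cells p57, p27 and p18 are known as brakes on division, while Cdk6 is known for promoting exit from quiescence.

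Libraries held 4327582 to 24069833 reads in genes for LSK, 1577073 to 8092644 for CMP, 1006090 to 6300070 for GMP and 1488328 to 5646315 for MEP. Smarcd2 was at 49.4 to 70.4 CPM (a gene's counts scaled to a common library size) in WT LSK libraries and at 0.845 to 1.94 in KO, and in the other populations no KO library was above 1.79 while no WT library was below 84.0. The 10 LSK markers were all detected in LSK libraries. GMP markers summed to between 12600 and 35230 CPM in WT GMP libraries and to 974 in the lowest GMP HET library. Some libraries stood apart by their median Spearman correlation with the others of their population: HET library 8 was at 0.198 in GMP, 0.833 in CMP and 0.787 in MEP, and KO library 15 was at 0.785 in MEP and 0.772 in GMP. KO GMP libraries held 2.52% to 3.06% spike-in reads against 0.149% to 0.233% in WT. In these bulk samples fewer cells of a type and less RNA per cell cannot be told apart.

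RefSeq promoter sequences (GRCm38.p6) were at hand for 5 of the 10 genes. The pair shown is Ccne1, the only E cyclin among them, and Cdkn1b, an inhibitor of its kinase complex. Each is printed 5′ to 3′ on the gene's strand up to the annotated gene start, with GGGCGG, the GC box bound by Sp1-type factors, in capitals on either strand. The Ccne1 stretch is chr7:38107535-38107740 (minus strand) and the Cdkn1b stretch is chr6:134920151-134920400 (plus strand).
Ccne1: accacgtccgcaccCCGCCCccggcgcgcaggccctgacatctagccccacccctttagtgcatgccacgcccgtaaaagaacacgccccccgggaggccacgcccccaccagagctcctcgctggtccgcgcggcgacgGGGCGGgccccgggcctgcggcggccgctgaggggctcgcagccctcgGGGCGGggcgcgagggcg
Cdkn1b: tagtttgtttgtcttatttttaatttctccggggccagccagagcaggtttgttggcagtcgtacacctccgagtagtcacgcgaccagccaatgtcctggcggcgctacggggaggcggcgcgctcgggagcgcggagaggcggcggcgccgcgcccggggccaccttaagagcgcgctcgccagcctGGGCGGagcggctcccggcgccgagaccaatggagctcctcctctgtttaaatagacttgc
The Ccne1 stretch holds 3 such matches and the Cdkn1b stretch holds 1. GGGCGG is present in 35.7% of all 32851 promoter windows of 300 bases. The E2F words TTTCCCGC, TTTGGCGC, TTTCGCGC and TTTGCCGC, searched on both strands, are in 2.26% of all windows and in no window of these genes, which says only that these letters are not there. CCAAT, in 37.4% of windows, occurs 3 times in the Cdkn1b window and not in that of Ccne1.

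In LSK cells 4 of the 10 genes were lower in KO than in WT and none was higher: Ccnd1, Ccne1, Ccne2 and Ccna2. All 4 are cyclins, while Cdk6 and the 3 inhibitors did not pass the test. Over all 13878 genes tested, 18.8% passed in this comparison (edgeR quasi-likelihood, adjusted p under 0.05) and 9.28% passed as lower. The median log2 fold change of the 10 genes was -0.15, against 0.01 over all genes tested.

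Ccnd1, the D cyclin most often tied to growth factor signals, stands on chromosome 7 (GRCm38, 144929931 to 144939925, minus strand). Its 5 WT libraries were at 78.8, 88.1, 89.3, 94.8 and 98.0 CPM. The 9 KO libraries ran from 44.2 to 75.2 CPM with a median of 63.7, so all KO values were under the lowest WT value. Among the 10 genes Ccnd1 alone had groups that did not overlap, where 6.77% of all genes tested did not. The log2 fold change was -0.53 ± 0.13 (SE, adjusted p = 0.00547). HET libraries ran from 60.4 to 113 CPM with a median of 90.4, and the fall from HET to KO was -0.49 ± 0.11 (adjusted p = 0.0047). Within the 4 title series that hold both genotypes, KO was lower by -0.73, -0.41, -0.59 and -0.47 on the log2 scale. KO libraries had a median spike-in share of 0.77% against 0.534% in WT. Adjusted for that share, the fall from WT was -0.36 (adjusted p = 0.0721), which no longer passed.

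Ccnd2 and Ccnd3, the D cyclins with broad expression in blood cells, did not pass in LSK KO against WT. Ccnd2 (chromosome 6, 127125162 to 127152193, minus strand) was at 312 ± 22.3 CPM in WT (SD, n = 5) and 300 ± 48.9 in KO (SD, n = 9). Ccnd3 (chromosome 17, 47505051 to 47599691, plus strand) was at 144 ± 27.1 in WT and 122 ± 19.27 in KO. Against HET, Ccnd3 had a log2 fold change of -0.34 ± 0.11 with an adjusted p of 0.052. It passed under 5 alternatives, among them DESeq2 (adjusted p = 0.0303), limma (0.0379) and series as a block (-0.27, 0.0435), and within the 5 series it was -0.17, -0.65, -0.10, -0.29 and -0.28. A processed pseudogene, Ccnd3-ps, is annotated elsewhere in the genome, and reads shared with it cannot be told apart.

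Both E cyclins, which activate Cdk2 at the start of S phase, fell. Ccne1 (chromosome 7, 38097984 to 38107534, minus strand) was at 54.9, 73.7, 84.7, 92.3 and 94.6 CPM in the WT libraries. Its KO libraries ran from 41.8 to 69.4 with a median of 47.0, overlapping only the lowest WT library, which is library 10 of series 24. The log2 fold change was -0.62 ± 0.12 (adjusted p = 0.00102), and against HET it was -0.53 ± 0.11 (adjusted p = 0.00192). Within series 19, 21, 22 and 24 the KO minus WT difference was -0.94, -0.48, -0.77 and -0.22.

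Ccne2 (chromosome 4, 11191351 to 11204779, plus strand) was at 104, 115, 120, 146 and 152 CPM in WT and from 68.8 to 114 in KO, with a median of 94.6. Its log2 fold change was -0.46 ± 0.11 against WT (adjusted p = 0.00313) and -0.49 ± 0.09 against HET (adjusted p = 0.000914). Within the same 4 series it was -0.53, -0.59, -0.48 and -0.06, so series 24 showed little difference. Both E cyclin falls passed under all 10 alternatives and in each of the 23 refits without 1 library.

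Ccna2, the cyclin of S phase and G2, stands on chromosome 3 (36564865 to 36572150, minus strand). It was the most spread of the 4, with WT libraries from 245 to 600 CPM and a median of 335. KO libraries ran from 161 to 313 with a median of 263, and the groups overlapped. The log2 fold change from WT was -0.64 ± 0.21 (adjusted p = 0.037), and HET libraries had a log2 fold change of -0.48 that did not pass. Between KO and HET it was -0.16 ± 0.18 (adjusted p = 0.638). Within series 19, 20, 21, 22 and 24 that difference was -0.35, -0.23, -0.28, -0.19 and -0.41, and with series as a block it passed, at -0.32 (adjusted p = 0.0047). The call against WT was lost under 6 of 10 alternatives, sex as a covariate among them. Without WT library 8 of series 22, at 600 CPM, the value was -0.42 (adjusted p = 0.187) and the call was lost. It was also lost without WT library 10 of series 24, KO libraries 5 and 6 of series 19, and KO library 3 of series 20 or of series 21.

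Cdk6, the partner kinase of D cyclins in blood progenitors, was at 218 ± 18.9 CPM in WT LSK cells and 216 ± 39.1 in KO (SD, n = 5 and 9), a log2 fold change of -0.01 ± 0.10. It stands on chromosome 5 (3341485 to 3531008, plus strand).

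The inhibitors were low in LSK cells. Cdkn1b (chromosome 6, 134920401 to 134925513, plus strand) ran from 5.58 to 10.5 CPM in WT and from 8.61 to 15.5 in KO, with overlapping groups and a log2 fold change of 0.50 ± 0.22 (adjusted p = 0.109). Limma voom gave an adjusted p of 0.0411 for it, and edgeR on these 2 genotypes alone gave 0.0498. Cdkn1c, an imprinted gene (chromosome 7, 143458339 to 143461050, minus strand), was at 10.1 ± 4.36 CPM in WT, 16.8 ± 6.03 in HET and 14.1 ± 5.91 in KO (SD, n = 5, 9 and 9), and no pair passed. Cdkn2c (chromosome 4, 109660876 to 109667189, minus strand) had 26 reads over all WT libraries and 60 over all KO libraries. Scaled, it was at 0.88 ± 0.86 CPM in WT and 0.81 ± 0.95 in KO (SD, n = 5 and 9). With so few reads a difference could be missed.

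In KO against HET in LSK cells 3 of the 10 genes fell, Ccnd1, Ccne1 and Ccne2, where 11.1% of all genes tested passed and 5.17% passed as lower. In HET against WT edgeR called none of the 10, where 0.00721% of genes passed. An unadjusted p under 0.05 was seen for 2 of them and for 11% of all genes, and neither DESeq2 nor limma called any.

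**Figure D1:**
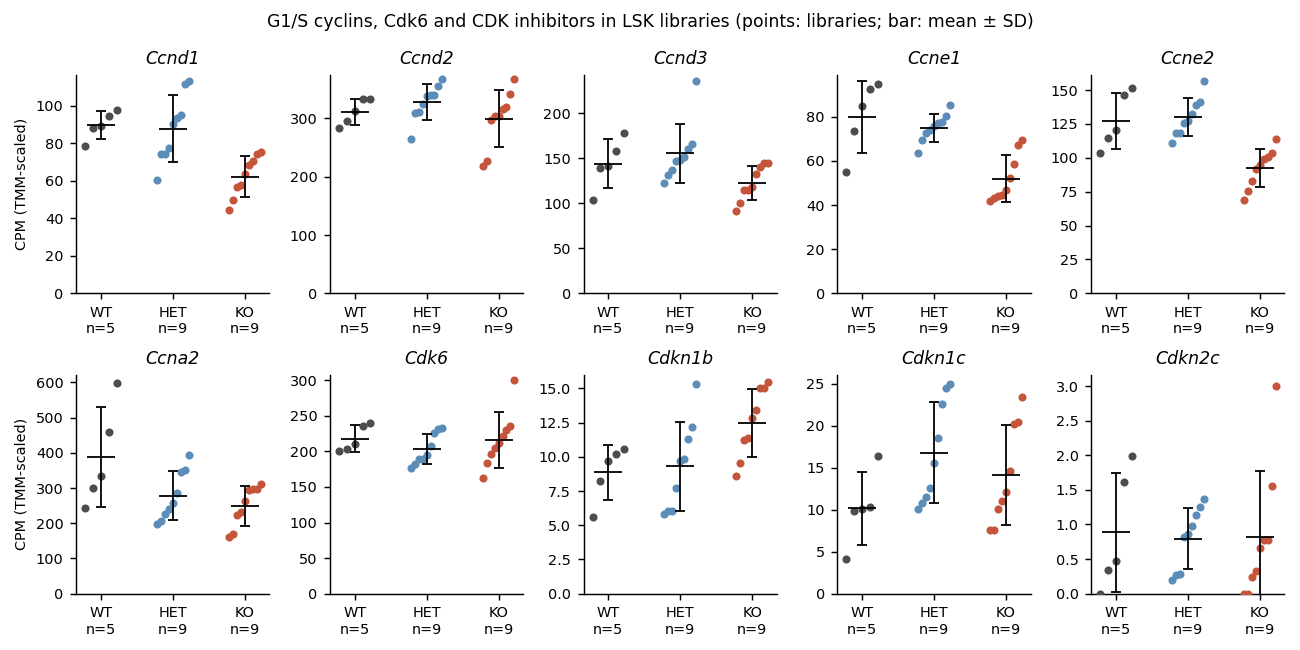
CPM of each gene in every LSK library by genotype, with the mean and SD as bars; each axis starts at 0. KO libraries of Ccnd1 lie between 44.2 and 75.2, all below the WT libraries, while those of Cdk6 and Ccnd2 overlap the other genotypes.

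Other genes of the pathway were read from lists. In LSK KO against WT 18.8% of all genes tested passed and 9.28% passed as lower, which the list counts are set beside. Cdkn1a (p21), the Cip/Kip inhibitor best known as a p53 target, rose in LSK KO cells, from 3.39 ± 1.46 CPM in WT (SD, n = 5) to 8.50 ± 2.02 in KO (SD, n = 9), a log2 fold change of 1.35 ± 0.28 (adjusted p = 0.00169). Of 22 E2F target genes of S phase entry, 4 fell and none rose: Rrm2, a ribonucleotide reductase subunit (-0.55), Pcna, the replication clamp (-0.38), Tyms, thymidylate synthase (-0.39), and Gins1 of the replicative helicase (-0.34). The list's median was -0.17, with 21 of 22 values negative. Of 17 pocket protein and E2F genes, 2 rose (Tfdp2 by 0.57 and Lin37 by 0.39) and 2 fell (E2f4 at -0.30 and E2f8 at -0.37). Of 14 genes for turnover of cyclins and inhibitors, 3 fell and none rose: Skp2 (-0.29) and Cks1b (-0.28), which help target p27 for degradation, and Cul1 (-0.20), a ubiquitin ligase scaffold.

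Of 11 kinases and their activators in LSK cells, only Ccnh, a subunit of the CDK-activating kinase, passed (-0.31), where 18.8% of all genes tested did. Of 9 genes tested from a list of other cyclins and mitosis genes, only Ccnb2, a mitotic cyclin, passed (-0.38). Among 14 upstream regulators 4 rose and none fell: Mycl (2.26), Foxo3 (0.48), Gfi1b (0.76) and Myb (0.35). Foxo3 is known as an activator of Cdkn1b. Of 17 imprinted growth genes 2 rose, Dlk1 (0.94) and Gab1 (0.47). The summed level of the 10 LSK markers, none at 0, ran from 1990 to 2279 CPM in WT LSK libraries and from 2420 to 3067 in KO. That of 9 late erythroid markers ran from 108 to 1837 in WT and from 114 to 486 in KO. The summed level of 11 macrophage markers ran from 134 to 1071 in WT and from 31.5 to 1680 in KO, with all 9 tested negative and 1 passing as lower, and that of the endothelial and stromal markers, of which 3 of 12 tested passed as higher in KO, from 193 to 309 and from 221 to 488, with no marker of either list at 0. The part of these marker levels in these results was not tested.

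In CMP 1 of 9 genes passed against WT, where 1.84% of all genes tested did and 0.823% as lower: Ccne2 fell. Its WT libraries were at 112, 92.7 and 71.8 CPM and its KO libraries at 43.6, 47.1, 37.3 and 38.4, without overlap. The log2 fold change was -1.16 ± 0.20 (adjusted p = 0.00402). It was -1.22 within series 32 and -0.60 within series 33, and 2 of the 4 KO libraries come from series 34, which has no other genotype. The call was lost without WT library 2 (-0.98, adjusted p = 0.0536) and with series as a block (-0.92, adjusted p = 0.0554). Groups did not overlap for 4 of the 9 genes (Ccnd1, Ccnd2, Ccne1 and Ccne2), where 16.5% of all genes tested did not.

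Against HET, 2 of 9 genes fell in CMP, where 2.19% of all genes tested passed and 0.806% as lower: Ccnd1 (-0.89 ± 0.19, adjusted p = 0.0147) and Ccne2 (-0.79 ± 0.18, adjusted p = 0.0213). Ccnd1 was at 20.6, 21.8 and 22.7 CPM in WT, from 19.38 to 36.3 in HET with a median of 23.4, and at 11.2, 12.1, 12.1 and 18.8 in KO. All KO libraries were thus below all WT and HET libraries, and the highest, library 6, is the only KO library of series 32. Neither call passed with series as a block (adjusted p = 0.327 and 0.324) or when adjusted for spike-in share (0.0955 and 0.119). Without KO library 13 or 15 both were lost, and Ccnd1 also without KO library 11.

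The remaining genes did not pass in CMP with edgeR, which also did not call Ccnd1 against WT. Against WT limma called Ccnd1 (adjusted p = 0.00684), Ccnd2 (0.032), Ccne1 (0.0492) and Cdkn1b (0.0241) with 772 of all 11658 genes, and DESeq2 called Ccne1 (0.0417) with 424. Ccnd2 was at 137, 156 and 167 CPM in WT and at 182, 203, 221 and 245 in KO, higher in every KO library, with a log2 fold change of 0.47 ± 0.18 (adjusted p = 0.227). Ccne1 was at 64.8 ± 5.24 CPM in WT and 46.8 ± 5.26 in KO (adjusted p = 0.173). Cdk6 and Ccna2 had log2 fold changes of 0.08 ± 0.22 and -0.18 ± 0.23. Cdkn1b was at 15.7 ± 2.64 CPM in WT and 9.64 ± 5.01 in KO (adjusted p = 0.32), and Cdkn1c had 37 reads over the 4 KO libraries. No gene was called in HET against WT by edgeR, DESeq2 or limma, where 0% of all genes tested passed. None of the 9 had an unadjusted p under 0.05, against 2.54% of all genes.

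Cdkn1a rose in CMP from 12.3 ± 0.38 to 46.5 ± 15.3 CPM (SD, n = 3 and 4; log2 1.92 ± 0.25, adjusted p = 0.000297). Rrm2 was the 1 of 22 E2F targets that passed (-0.90), where 1.84% of all genes tested did. Of 14 upstream regulators 4 rose: Mycl (3.65), Egr1 (1.86), Gfi1b (1.39) and Mycn (1.12). No gene passed from the lists of kinases and their activators, of pocket proteins and E2F, or of other cyclins and mitosis genes. The summed level of 14 hepatocyte markers was 332 to 840 CPM in WT CMP libraries and 38.8 to 144 in KO, with no marker at 0. That of 8 LSK markers was 582 to 647 in WT and 756 to 790 in KO. Of the 7 LSK markers tested, 2 passed as higher and 3 had a negative log2 fold change, with a median of 0.01. The part of these levels in the results was not tested.

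In GMP edgeR called none of the 10 genes in KO against WT, where 0.204% of all genes tested passed. An unadjusted p under 0.05 was seen for 3 of them and for 6.45% of all genes, and neither DESeq2 nor limma called any. The 3 were Ccnd1, Ccne2 and Cdkn1b. In KO Ccnd1 and Cdkn1b had few reads, while Ccne2 had 182 over the 3 libraries. Ccnd1 had 6, 13 and 17 reads in the WT libraries and 0, 0 and 1 in KO, a pooled ratio of 39.5-fold lower with an exact 95% counting interval from 6.66-fold to 1604-fold lower. This interval covers counting error only, since amplified reads are not independent molecules, and the edgeR adjusted p was 0.277. Cdkn1b had 19, 2 and 10 reads in WT and 1, 2 and 0 in KO, 11.3-fold lower (3.54 to 58.0), with an adjusted p of 0.685. Its WT reads came mostly from library 2.

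Ccne2 was at 70.2, 68.0 and 99.0 CPM in WT GMP libraries and at 4.15, 41.7 and 8.08 in KO, all KO libraries lower, with a log2 fold change of -2.16 ± 0.77 (adjusted p = 0.554). Ccnd2 was at 57.3, 64.3 and 54.9 in WT and 115, 57.3 and 57.7 in KO. Cdk6 ran from 517 to 645 CPM in WT and from 118 to 499 in KO. Ccnd3, Ccne1, Ccna2, Cdkn1c and Cdkn2c had log2 fold changes between -0.53 and 1.60 with adjusted p of 0.808 or more. Groups did not overlap for 4 of the 10 genes, each lower in KO (Ccnd1, Ccne2, Ccna2 and Cdk6), where 14.2% of all genes tested did not. Of the 3 KO GMP libraries, 2 come from series 34, which has no other genotype. Within series 32, with 1 KO library, the KO minus WT differences of these 4 were -3.15, -3.90, -0.52 and -1.65 on the log2 scale. Against HET edgeR called none (0.261% of all genes), 3 had an unadjusted p under 0.05 (12.3% of all genes), DESeq2 called 2, Ccnd1 and Cdkn1b, and limma none. In HET against WT edgeR and DESeq2 called none of the 10, and none had an unadjusted p under 0.05 in edgeR, where 0% of all genes tested passed and 0.498% had such a p. Limma called 3 of the 10, and 6233 of all 12239 genes.

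The KO GMP libraries differed from WT in measures other than these genes. Their GMP markers summed to between 13810 and 24990 CPM, within the WT range given above. Of the 10 GMP markers tested, 8 had a negative log2 fold change and none passed. Elane ran from 1134 to 3744 CPM in WT and from 133 to 219 in KO, and Ctsg from 1802 to 2620 and from 132 to 325. The spike-in share of the KO libraries is given above, and HET libraries held 0.009125% to 0.394%. KO libraries did not overlap the other genotypes in it, so share and genotype cannot be told apart in GMP. In a fit adjusted for it 2 of the 10 genes passed, Ccne2 at -4.38 (adjusted p = 0.026) and Ccna2 at -2.82 (adjusted p = 0.0166). So did 1696 of all 12239 genes, and the median log2 fold change over all genes moved to -0.44. Without KO library 13 Ccne2 also passed, at -3.69. Their transcript length index, the log2 level of genes with long transcripts minus that of genes with short ones, was -1.6 at the lowest and 0.17 at the highest, against -0.41 to 0.75 in WT. The summed level of 11 macrophage markers was 54.1 to 89.9 CPM in WT and 99.6 to 152 in KO, with 1 marker at 0 in each. Of the 6 macrophage markers tested, 3 had a negative log2 fold change and none passed. The summed level of endothelial and stromal markers was 50.1 to 93.3 in WT and 97.6 to 251 in KO, and none of the 3 tested passed. That of hepatocyte markers was 42.0 to 1485 and 34.3 to 87.4, all 13 tested having a negative log2 fold change. In KO 1 marker of each list was at 0. The part of these levels in the results was not tested. Cdkn1a rose from 13.4 ± 1.963 to 80.6 ± 19.52 CPM (SD, n = 3 and 3; log2 2.58 ± 0.48, adjusted p = 0.0285), and Egr1, an immediate early transcription factor, rose by 3.49. No other gene of the lists passed in KO against WT.

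In MEP edgeR called none of the 10 genes in KO against WT, where 0.00856% of all genes tested passed. An unadjusted p under 0.05 was seen for 4 of them and for 6.92% of all genes. DESeq2 called none and limma 1. That 1 was Ccnd2, at 134, 88.9 and 178 CPM in WT and at 288, 305, 288 and 323 in KO, so all KO values were over the highest WT value. The log2 fold change was 1.17 ± 0.42 (edgeR adjusted p = 0.561, limma adjusted p = 0.0137). Without HET library 8 and KO library 15, which stand apart, it was 1.15 (adjusted p = 0.0577). HET libraries ran from 110 to 430 CPM with a median of 177. Groups did not overlap for 3 of the 10 genes (Ccnd2, Ccne1 and Ccne2), where 10% of all genes tested did not. Of the 4 KO MEP libraries, 2 come from series 34, which has no other genotype. The KO minus WT differences of these 3 genes on the log2 scale were 1.40, 0.61 and -0.94 within series 32. Within series 33 they were 0.77, 0.03 and -0.45, with 1 KO library in each series.

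The fitted values of the E cyclins had opposite signs in MEP, and neither passed. Ccne1 was at 116, 112 and 138 CPM in WT and at 174, 141, 162 and 409 in KO, the last in library 15; its log2 fold change was 0.86, and 0.40 without that library. Ccne2 was at 140, 114 and 85.6 in WT and at 65.4, 62.3, 72.1 and 47.2 in KO (-0.87 ± 0.37, adjusted p = 0.685). Cdkn2c had 10, 32 and 7 reads in WT and 1, 5, 7 and 7 in KO (-2.11 ± 0.78, adjusted p = 0.574). Cdk6 was at 413 ± 98.5 CPM in WT and 348 ± 174 in KO, and HET library 8 was at 3594 against 504 in the next HET library. Ccna2 had a log2 fold change of -0.06 ± 0.25.

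Against HET in MEP edgeR and DESeq2 called none (0.0171% of all genes), 2 had an unadjusted p under 0.05 (7.23% of all genes) and limma called 2. In HET against WT no gene was called by edgeR, DESeq2 or limma, none had an unadjusted p under 0.05 (0.762% of all genes) and 0% of all genes tested passed. Cdkn1a was at 7.002 ± 1.76 CPM in WT and 11.4 ± 6.18 in KO (adjusted p = 0.75), and no gene of the lists passed in KO against WT. The summed level of 11 B cell genes was 305 to 1874 CPM in WT MEP libraries and 93.7 to 212 in KO, and that of 9 late erythroid markers 2302 to 18190 and 760 to 3606. Their part in these results was not tested.

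**Figure D2:**
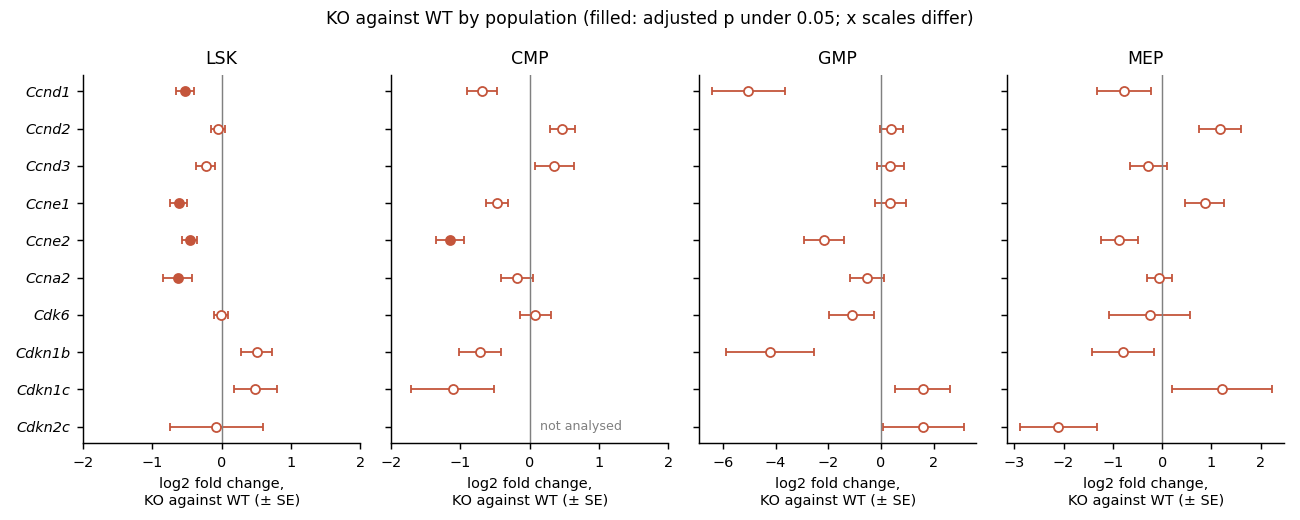
Log2 fold change of each gene in KO against WT with its SE, by population; filled points have an adjusted p under 0.05 and the horizontal scales differ. Filled points are Ccnd1, Ccne1, Ccne2 and Ccna2 in LSK and Ccne2 in CMP; the GMP values of Ccnd1 and Cdkn1b rest on 1 and 3 KO reads.

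Whether the KO effect differs between populations was tested in a model over CMP, GMP and MEP, which shares its WT libraries between comparisons. The model treats same-numbered libraries of these populations as independent. For CMP against GMP and CMP against MEP edgeR, DESeq2 and limma called none of 9 genes, where 0.0169% and 0% of all genes passed. An unadjusted p under 0.05 was seen for 3 and 1 of them and for 6.04% and 2.35% of all genes. For GMP against MEP 1 of 9 passed, where 0.414% did: the Ccnd1 difference was -4.17 ± 1.00 (adjusted p = 0.0441), resting on the 1 KO read in GMP. It was lost with RLE scaling, DESeq2 and limma (adjusted p = 0.0581, 0.0945 and 0.708) and with the library number as a block. It was also lost in 10 of 13 refits without 1 library, namely without any one of the WT libraries of GMP, WT libraries 2 and 12 of MEP, KO library 6 of GMP or any one of the KO libraries of MEP.

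Between populations of the same genotype the clearest pattern was in HET, with 7 libraries in each. Ccnd1 was highest in CMP, at 17.9 to 33 CPM on the scale of the joined model (median 21.32), then MEP at 2.96 to 10.4 (median 6.09) and GMP at 1.11 to 10.9 (median 2.85). Both steps passed, with log2 differences of -1.70 ± 0.33 for MEP against CMP (adjusted p = 0.000279) and -1.40 ± 0.38 for GMP against MEP (adjusted p = 0.00685). The highest GMP value was HET library 8. Ccnd2 was lower in HET GMP than in CMP (-1.08 ± 0.23, adjusted p = 0.0025) and MEP (-1.47 ± 0.24, adjusted p = 8.24e-06).

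Ccnd3 was higher in HET MEP than in CMP (1.06 ± 0.27, adjusted p = 0.00508), as was Ccne1 (1.52 ± 0.28, adjusted p = 0.000133), and both were lower in GMP than in MEP (-0.97 and -1.54). In all, 2, 3 and 4 of 9 genes passed for GMP against CMP, MEP against CMP and GMP against MEP in HET, where 5.6%, 10.2% and 17.7% of all genes tested did. These 9 calls were kept in all 14 refits without 1 library of each comparison and under all 6 alternatives. Ccne2, Ccna2, Cdk6, Cdkn1b and Cdkn1c did not pass in edgeR in any of the 3. For Cdk6 in GMP against MEP the tools differed in sign, at -1.18 with DESeq2 (adjusted p = 0.0451) and 0.47 with limma (adjusted p = 0.0191). Ccna2 passed with limma in MEP against CMP (0.44, adjusted p = 0.000431) and in GMP against MEP (-0.38, adjusted p = 0.0034).

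In WT, with 3 libraries a population, 1 of 9 genes passed for GMP against CMP, 1 for MEP against CMP and none for GMP against MEP, where 1.03%, 3.1% and 6.95% of all genes did. The gene was Ccnd1 in both, at -2.40 ± 0.54 (adjusted p = 0.0128) and -1.84 ± 0.52 (adjusted p = 0.0343). The first was lost without CMP library 2 or GMP library 5 or 12, and the second without any library but MEP library 5. For GMP against MEP 3 had an unadjusted p under 0.05 (18.4% of all genes), DESeq2 called 2 (and 1175 of all 11829 genes) and limma 4 (and 6034).

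In KO 4 and 3 of 9 genes passed for GMP against CMP and MEP against CMP, where 17.2% and 9.37% of all genes did. For GMP against MEP 5 of 9 passed, where 2398 of all 11829 genes did. Ccnd1 was lower in MEP than in CMP (-1.97 ± 0.46, adjusted p = 0.00275), and its pooled reads in GMP were 139-fold lower than in CMP (24.6 to 5506). Ccne1 was higher in MEP than in CMP (2.28 ± 0.38, adjusted p = 3.5e-05) and lower in GMP than in MEP (-1.56 ± 0.41, adjusted p = 0.00596). Ccnd2 was lower in GMP than in CMP (-1.15 ± 0.34, adjusted p = 0.0218; lost without CMP library 11 or GMP library 15) and than in MEP (-1.71 ± 0.35, adjusted p = 0.000372). Ccne2 was lower in GMP than in MEP (-1.60 ± 0.50, adjusted p = 0.0186), a call lost without GMP library 6 or 15 and at -3.02 without library 13.

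The inhibitors Cdkn1b and Cdkn1c also differed between KO populations. Pooled Cdkn1b reads in KO GMP were 31.9-fold lower than in CMP (10.7 to 157) and 26.4-fold lower than in MEP (8.80 to 130); every KO GMP library was below every KO CMP and MEP library. The call against CMP was lost without GMP library 15 (adjusted p = 0.0556), and both were lost with limma (adjusted p = 0.407 against CMP and 0.401 against MEP). Cdkn1c was higher in KO GMP than in CMP (3.18 ± 0.91, adjusted p = 0.0184), from KO GMP values of 40.4, 1.92 and 15.9 CPM, and the call was lost without library 6 of either population and with limma (2.45, adjusted p = 0.12). It was also higher in KO MEP (3.28 ± 0.88, adjusted p = 0.0108), but at 1.29 (adjusted p = 0.553) without MEP library 15.

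**Figure D3:**
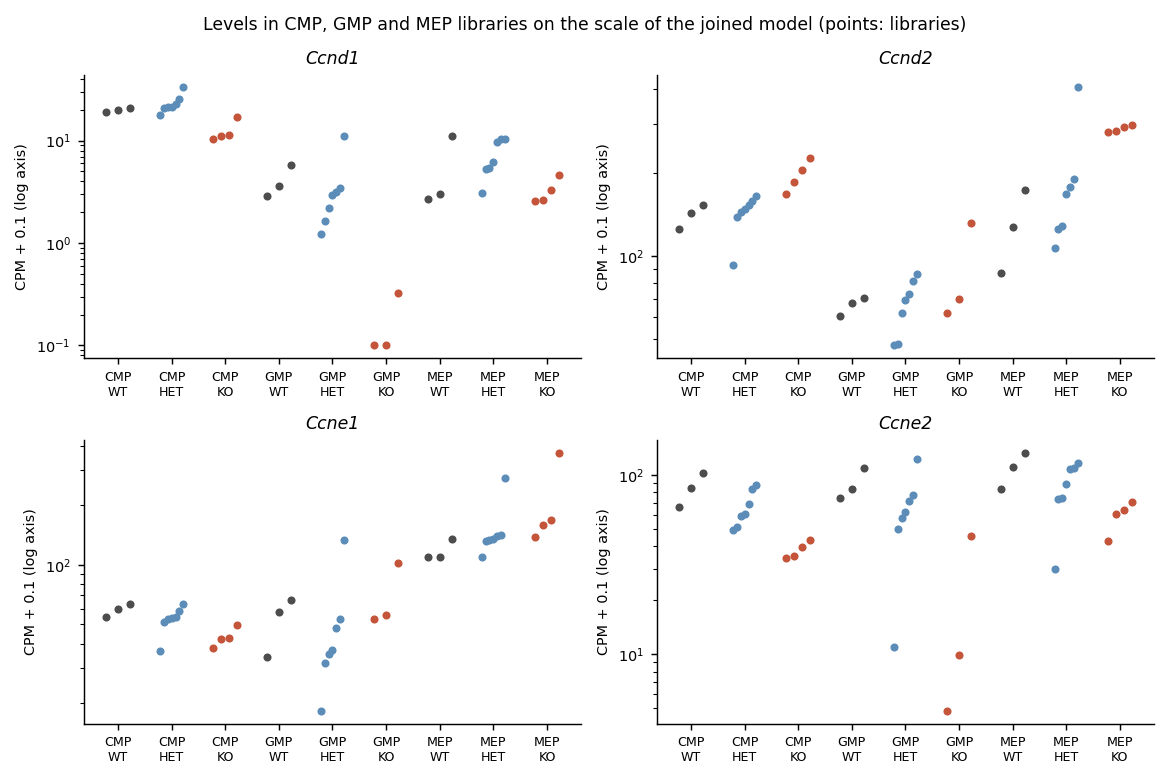
CPM plus 0.1 on a log axis for Ccnd1, Ccnd2, Ccne1 and Ccne2 in each CMP, GMP and MEP library, on the scale of the joined model. Ccnd1 is highest in CMP in each genotype, and 2 of the 3 KO GMP libraries have no Ccnd1 read.

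Levels of different genes can be compared only per length. In WT LSK cells the order by CPM per kb of exon union was Ccna2 (94.9 ± 34.9), Ccne2 (36.4 ± 5.96), Ccnd2 (33.1 ± 2.37), Ccne1 (30.1 ± 6.12), Ccnd1 (19.07 ± 1.56), Ccnd3 (16.4 ± 3.09), Cdk6 (15.6 ± 1.35), Cdkn1c (4.97 ± 2.14), Cdkn1b (1.95 ± 0.45) and Cdkn2c (0.33 ± 0.32; SD, n = 5). Neighbours from Ccne2 to Ccne1, and from Ccnd1 to Cdk6, differed by less than the larger of their SDs. Per kb of the longest transcript Ccnd2 (49.2) moved above Ccne2 (42.4), and Ccnd3 (37.3) above Ccnd1 (24.01).

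Among the D cyclins the share of each in their summed level per kb of exon union differed by population. Ccnd1 made up 28.0% ± 3.52 in WT LSK cells (SD, n = 5), 12.7% ± 0.02 in CMP, 4.20% ± 1.47 in GMP and 2.70% ± 1.88 in MEP (SD, n = 3 each). In KO its share was 22.54% ± 4.07, 6.52% ± 2.18, 0.06% ± 0.10 and 1.34% ± 0.59. Ccnd3 was the largest share in WT GMP (60.7%) and MEP (61.9%), while Ccnd2 was the largest in KO MEP (59.3% ± 8.41 against 35.4% ± 15 in WT). By longest transcript Ccnd2 and Ccnd3 were level in KO MEP, at 49.4% and 49.6%. In CMP, Ccnd2 and Ccnd3 were near each other by exon union (45.0% and 42.3% in WT), and by longest transcript Ccnd3 was larger (53.6% against 37.4%). LSK counts come from a separate table, so shares but no tests are set beside the others.

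**Figure D4:**
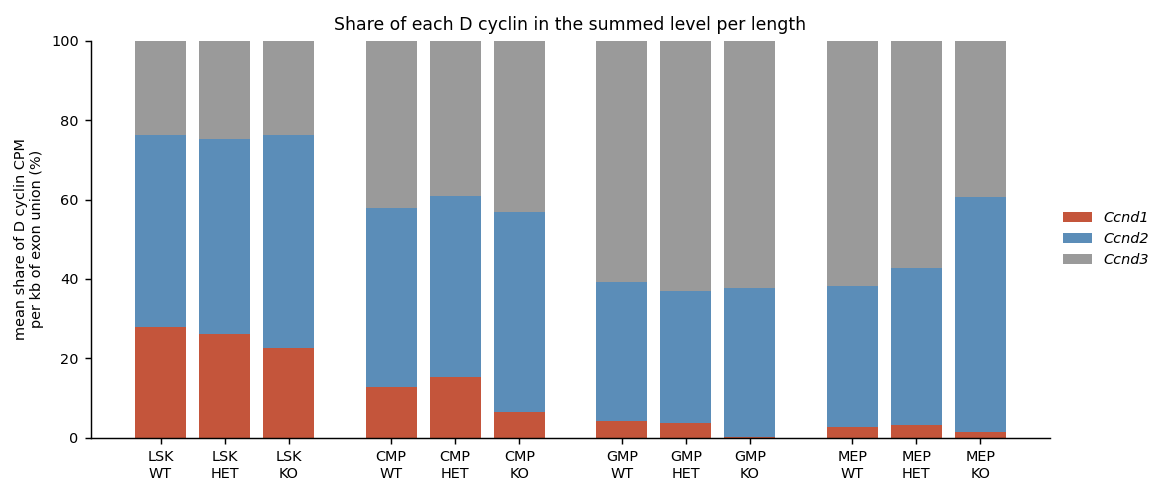
Mean share of Ccnd1, Ccnd2 and Ccnd3 in their summed CPM per kb of exon union, by population and genotype. Ccnd1 is 28.0% in WT LSK cells and at most 15.3% in any group of the other populations.

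The genes most alike in level to each member were listed by Pearson correlation of log2 CPM, as a description, over libraries that share depth and composition effects. Over the 23 LSK libraries Ccne1 was nearest to Srm (0.90), Rrs1 (0.90) and Phb2 (0.89), and Ccne2 to Rrm2 (0.89), Jpt2 (0.87) and Abcf2 (0.87). Ccna2 was nearest to Trim59 (0.94), Cip2a (0.92) and Tacc3 (0.92), and Ccnd1 to Mettl1, Mrps27 and Tubb4b (0.84 each). The weakest nearest neighbour in LSK was that of Cdk6, Lats1 at 0.67. Over the 41 CMP, GMP and MEP libraries Ccne1 was nearest to Alad (0.93), Rab4a (0.92) and Urod (0.91), Ccnd1 to Hpgd (0.83), Mef2c (0.83) and AI504432 (0.82), and Ccne2 to Rbbp8 (0.88), Donson (0.86) and Esco2 (0.86).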

How the data were processed

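The authors deposited whole-number read counts per Ensembl gene, and the submitters' processing notes name featureCounts and the build mm10, which is GRCm38, with aligner and annotation release not given in the sources used here. Libraries were made by Smart-seq2 and tagmentation per the labels' protocols, without strand or molecule marks. Symbols and positions came from GENCODE M21. Spike-ins were left out of totals and tests. Each population was fitted in edgeR 4.0.16 (R 4.3.3; TMM, filterByExpr with minimum count 10 and total 15, robust quasi-likelihood, 3 genotypes in 1 model), with Benjamini-Hochberg adjustment over all genes at 0.05. A joined model covered the 11902 genes shared by the CMP, GMP and MEP tables. An SE is the log2 fold change over the square root of F. Alternatives used RLE scaling, other filters, DESeq2 1.42.0, limma 3.58.1 voom with an estimated quality weight per library, covariates, blocks and left-out libraries. Leaving out libraries that stand apart, or one of the genotype not compared, was chosen after seeing the data. The script was tested on simulated data. All 10 members are named, with up to 4 passing genes per list and population and Cdkn1a; likeness takes the 3 highest correlations (prior count 2), passing over predicted genes. The members and lists were chosen with earlier results of these data known. No 2 libraries of a group agreed within sampling noise.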

Additional observations from a re-analysis of the deposited data

Results flagged for a closer look

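In 78 groups of 4 to 10 libraries, 15 values stood apart from the rest of their group by Dixon's criterion, where chance gives about 1 group in 20. Of these, 8 belong to HET library 8: in CMP its Ccnd2 was 98.82 CPM (next lowest 150.6), its Ccna2 142.6 (308.9) and its Cdk6 233.6 (431.6). In GMP its Ccnd1 was 8.771 (next highest 2.888) and its Ccna2 35.08 (next lowest 254). In MEP its Ccnd2 was 429.9 (next highest 196.3), its Ccne1 289.5 (147.1) and its Cdk6 3594 (503.8).

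KO library 15 stood apart in MEP, with Ccnd3 at 109.2 CPM (next lowest 210.1), Ccne1 at 408.9 (next highest 173.8) and Cdkn1c at 75.89 (6.022). KO library 6 stood apart in CMP, with Ccnd1 at 18.79 (next highest 12.13) and Cdk6 at 420 (next lowest 556.5). Single values were Ccne1 in GMP HET library 7, at 106.5 (next highest 48.01), and Ccnd3 in LSK HET library 4 of series 20, at 235.5 (165.9).

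The Ccnd1 difference between KO and WT was further below 0 in GMP than in MEP, by a fitted -4.175 on the log2 scale, which the edgeR test of the difference passed. It rests on 1 KO read in GMP.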

How the results depend on the processing

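Of 186 alternative settings over 24 comparisons, apart from leaving out single libraries, 157 gave a count of called genes within 1.5 times the main count and 29 did not; the cause was not tested. With limma voom the count was 5 for LSK KO against HET (1823 of all genes), 5 for CMP KO against WT (772), 3 for GMP HET against WT (6233), 1 for MEP KO against WT (159) and 2 for MEP KO against HET (309). Between populations limma gave 4, 3 and 4 in WT (GMP against CMP, MEP against CMP, GMP against MEP), 0, 7 and 3 in KO, and 0 for the GMP against MEP difference in KO effect; over all genes these were 6801, 2293 and 6034, then 305, 4677 and 1755, then 11. DESeq2 gave 2 for CMP KO against WT, 2 for GMP KO against HET, 2 for WT GMP against MEP and 0 for that difference. Adjusting for spike-in share gave 2 for LSK KO against WT, 0 for CMP KO against HET and 2 for GMP KO against both WT and HET. KO GMP libraries did not overlap the other genotypes in that share, so the GMP adjustment cannot separate it from genotype. The title series as a block gave 5 for LSK KO against HET and 0 for CMP KO against both others. RLE scaling gave 0 for WT MEP against CMP and 0 for the GMP against MEP difference in KO effect.

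The labels do not say whether same-numbered libraries of CMP, GMP and MEP come from the same fetus. Pairing is therefore not settled, and the main tests treat these libraries as independent. Of 40 pairs, 26 had a correlation of deviations above 0.1 (lowest -0.45), and 23 were highest with their own number. The replicate block on that number gave 0 for the GMP against MEP difference in KO effect, with Ccnd1 at -4.46 (adjusted p = 0.0718), and Cdkn1c in KO GMP against CMP was lost under it (2.57, adjusted p = 0.0512). Leaving out the 4 libraries that stand apart, an alternative chosen after seeing the data, gave 2 for WT GMP against CMP, 3 for WT GMP against MEP and 1 for the CMP against GMP difference in KO effect. Cdk6 in HET GMP against MEP, not called by edgeR, passed with DESeq2 (-1.18, adjusted p = 0.0451), and its sign changed with limma, which called it (0.47, adjusted p = 0.0191), and without those 4 (0.14, adjusted p = 0.761).

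The sign also changed for genes that edgeR did not call and another setting did. In GMP HET against WT these were Cdkn1b with the length covariate (-0.0032) and Cdkn1c with RLE scaling (0.059) and DESeq2 (0.076). Ccna2 in GMP KO against HET was at 0.015 with only the 2 groups, and Ccne1 in HET GMP against CMP at 0.00047 with DESeq2. Cdkn1c in KO GMP against MEP was at 1.09 with limma, 0.035 with the replicate block and 1.83 without those 4, where it passed (adjusted p = 0.0432). Without 1 library at a time these ran from -0.53 to 0.061 for Ccne1, -0.28 to 2.73 for Cdkn1b and -0.61 to 0.60 for Cdkn1c in GMP HET against WT, -0.21 to 0.092 for Ccna2 in GMP KO against HET, -0.21 to 1.28 for Cdkn1c in WT GMP against CMP, -0.48 to 0.072 for Ccne1 in HET GMP against CMP and -1.17 to 1.84 for Cdkn1c in KO GMP against MEP.

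Leaving out 1 library at a time gave 3 to 4 called genes for LSK KO against WT and 3 to 5 against HET, 0 to 3 for CMP KO against WT and against HET, 0 to 1 for GMP KO against WT and against HET, and 0 in MEP. Between populations the ranges were 0 to 2, 0 to 1 and 0 to 1 in WT, 2 to 5, 2 to 3 and 4 to 5 in KO, and 0 to 2 for the CMP against GMP and for the GMP against MEP difference in KO effect. Over all genes, calls for LSK KO against WT ran from 1405 to 3486, for CMP KO against WT from 83 to 772 and for GMP KO against WT from 3 to 1696. Low reads limit Cdkn2c in LSK and Ccnd1 and Cdkn1b in GMP.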
